A study of Mus musculus with 4 samples.

Results

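The genes of the cytosolic ribosomal proteins, the protein components of the large and the small subunit of the ribosome, were followed in mouse bone marrow cultures with and without a Nat10 conditional knockout. They were chosen by name alone: a symbol of Rpl or Rps with a number and at most a closing a or x, or Rplp0, Rplp1, Rplp2, Rpsa or Rps3a1. The rule took 77 of the 21834 genes of the count table, 46 of the large and 31 of the small subunit, on 19 chromosomes. All 77 passed the filter on low counts, which kept 11448 genes for testing.

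RNA was sequenced in 2 libraries labelled Nat10 conditional knockout (Nat10 cKO) and 2 labelled wild type (WT). All 4 came from bone marrow derived monocytes grown for 3 days with RANKL, which turns such precursors into osteoclasts, and all cells were rinsed in cycloheximide, a drug that stops ribosomes on messenger RNA, and depleted of ribosomal RNA. The study asks what the acetylase NAT10 does while osteoclasts form. The sources used here do not give the Cre driver, the deleted exons, the age and sex of the mice or whether 2 libraries mean 2 animals, so a p-value reflects only how far these libraries lie apart, and that spread may be technical.

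The ribosome decodes messenger RNA on its small subunit and joins amino acids on its large subunit, and nearly every ribosomal protein is needed in equal number in each particle. Vertebrate ribosomal protein messenger RNAs begin with a tract of pyrimidines, the 5′ terminal oligopyrimidine (TOP) motif, through which mTOR and LARP1 control their translation and stability together. In human and yeast cells NAT10 or its homologue places N4-acetylcytidine on the ribosomal RNA of the small subunit and on some transfer RNAs, and is needed to make that subunit.

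Promoter sequence is shown for the member of each subunit with the largest called rise, Rpl31 and Rps26, and for the P stalk gene Rplp2 and the small subunit gene Rps9, whose log2 fold changes were 0.00 and 0.02 (Rps9 was chosen after its values were seen). Each stretch runs 5′ to 3′ on the gene's strand from 250 bases before the annotated RefSeq start to 30 bases after it, on GRCm38.p6, a build other than the GRCm39 of the counts. Capitals mark CCGGAAG or its reverse complement CTTCCGG, the core bound by the ETS factor GABP. The stretches lie at chr1:39367601-39367880 on the plus strand, chr10:128626477-128626756 on the minus strand, chr7:141447401-141447680 on the plus strand and chr7:3703791-3704070 on the plus strand.
Rpl31: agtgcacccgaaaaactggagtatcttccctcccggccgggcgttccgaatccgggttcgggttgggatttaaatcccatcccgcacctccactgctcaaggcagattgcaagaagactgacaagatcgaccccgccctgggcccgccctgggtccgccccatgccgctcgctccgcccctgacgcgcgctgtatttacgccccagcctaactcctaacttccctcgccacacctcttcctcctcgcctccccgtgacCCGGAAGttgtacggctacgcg
Rps26: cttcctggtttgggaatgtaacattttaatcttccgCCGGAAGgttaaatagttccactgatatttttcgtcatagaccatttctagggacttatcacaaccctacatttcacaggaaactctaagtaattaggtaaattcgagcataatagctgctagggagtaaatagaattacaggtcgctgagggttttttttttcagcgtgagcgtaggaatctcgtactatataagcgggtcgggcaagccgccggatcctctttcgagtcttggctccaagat
Rplp2: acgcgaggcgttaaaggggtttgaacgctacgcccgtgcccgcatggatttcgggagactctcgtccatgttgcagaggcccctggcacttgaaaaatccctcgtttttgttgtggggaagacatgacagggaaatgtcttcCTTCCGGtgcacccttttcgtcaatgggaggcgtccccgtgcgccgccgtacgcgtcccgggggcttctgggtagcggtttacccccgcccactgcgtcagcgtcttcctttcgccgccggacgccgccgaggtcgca
Rps9: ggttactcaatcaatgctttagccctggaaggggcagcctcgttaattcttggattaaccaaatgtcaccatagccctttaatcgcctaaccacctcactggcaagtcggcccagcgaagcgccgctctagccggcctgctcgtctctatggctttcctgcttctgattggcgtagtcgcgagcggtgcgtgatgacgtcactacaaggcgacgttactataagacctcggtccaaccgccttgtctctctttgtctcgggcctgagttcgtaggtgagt
Counted from the first transcribed base as 1, the motif begins at base 9 in Rpl31, at -214 in Rps26 and, on the other strand, at -108 in Rplp2, and these letters are not in the Rps9 stretch.

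Promoter windows of 250 bases before and 50 after the start were matched by symbol for 57 of the 77 members. CCGGAAG, searched on both strands, was in 24 of these 57 (42.11%), against 13.2% of the windows of 16895 genes of the count table. Its share was 41.18% in the large and 43.48% in the small subunit. Among members called higher it was present in 14 of 32 (43.75%), and among those not called in 10 of 25 (40.0%). The other letters searched on both strands were AAGATGG, the core of the YY1 motif, in 15.79% of the member windows against 7.2% of all, GGGCGG, the core bound by SP factors, in 61.4% against 50.59%, and CACGTG, the E box bound by MYC and its partners, in 10.53% against 9.14%. A match describes the letters in the window and not a bound site.

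Library totals were 11291993 and 14097638 counts in Nat10 cKO and 10037338 and 13063821 in WT. Nat10 (ENSMUSG00000027185) had 184 and 205 counts in Nat10 cKO, against 165 and 238 in WT (15.1 ± 1.12 CPM against 17.7 ± 1.27 CPM, SD, n = 2 each, log2 fold change -0.24, SE 0.153, adjusted p = 0.263). Reads summed over every exon cannot show whether a few were removed, and each direction below rests on the labels. By edgeR at an adjusted p under 0.05, 14.4% of all tested genes were called higher and 14.4% lower. All 9 osteoclast markers were present, with 6 higher and 2 lower (summed 6146 and 6876 CPM in Nat10 cKO, against 4772 and 5053 CPM in WT). The 7 macrophage markers were also present, with 4 higher and 2 lower (summed 30240 and 34093 CPM in Nat10 cKO, against 19204 and 21176 CPM in WT). Of that macrophage sum, Lyz2 alone held 23594 and 27535 CPM in Nat10 cKO, against 14102 and 15928 CPM in WT. The 2 lower macrophage markers were Cd14 and Mrc1 (log2 fold changes -0.50 and -1.51). Of 12 stromal and osteoblast markers 10 were tested and 9 rose, and Bglap was at 0. The list summed to 1007 and 967 CPM in Nat10 cKO, against 261 and 249 CPM in WT. Of 8 neutrophil markers 5 were tested and 4 rose, and Ly6g was at 0. The list summed to 784 and 890.1 CPM in Nat10 cKO, against 464 and 451 CPM in WT. Of 8 genes of dividing cells 6 rose and 1, Mki67, fell, with sums of 273 and 290.4 CPM in Nat10 cKO, against 212 and 208 CPM in WT. Lymphocyte markers summed to 1.23 to 2.41 CPM and erythroid markers to 0.204 to 1.17 CPM in any library, with 1 of 5 and 1 of 4 at 0. The part of these cells in the ribosomal protein values was not tested. In bulk RNA, more cells of a type and more RNA per cell cannot be told apart.

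Transcripts of both subunits took a larger share of the counts in the Nat10 cKO libraries. The 77 genes together held 4.53% and 5.05% of all counts in the 2 Nat10 cKO libraries, against 3.79% and 3.85% in the 2 WT libraries. The share was 4.79 ± 0.368% in Nat10 cKO and 3.82 ± 0.0401% in WT (SD, n = 2 each), 1.25-fold or 0.32 on the log2 scale. The groups did not overlap, and the Nat10 cKO libraries lay further apart than the WT libraries. The exact (Clopper-Pearson) 95% intervals, which cover counting error only, ran from 4.51 to 4.54% and from 5.03 to 5.06% in Nat10 cKO, against 3.78 to 3.81% and 3.84 to 3.86% in WT.

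The summed counts of the large subunit differed slightly more between the groups than those of the small. Large subunit genes held 2.54% and 2.82% of the counts in Nat10 cKO, against 2.09% and 2.13% in WT, 1.27-fold. Small subunit genes held 1.99% and 2.22% in Nat10 cKO, against 1.70% and 1.72% in WT, 1.23-fold. The ratio of large to small subunit counts was 1.273 and 1.272 in the Nat10 cKO libraries and 1.228 and 1.234 in the WT libraries. The ratio did not overlap between the groups, which differed by 0.048 on the log2 scale. It was 0.034 without Rps27a and the members that have a named copy in the table, 12 genes in all, and 0.044 to 0.052 with any 1 library left out. An exact permutation test of 2 against 2 libraries cannot reach the threshold, and no test of the ratio was made.

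**Figure D1:**
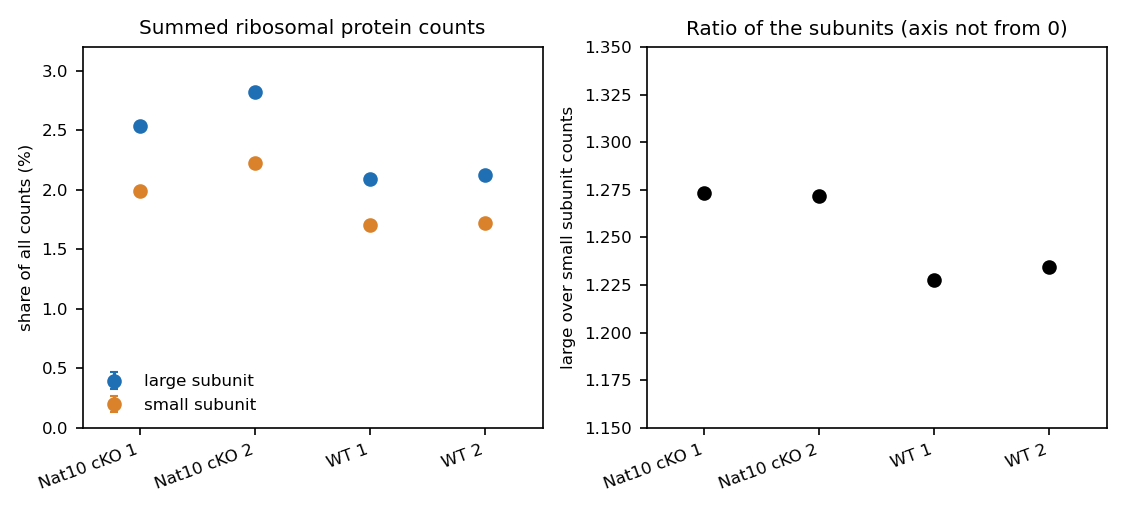
Share of all counts (%, left) held by the large (blue) and small (orange) subunit genes and their ratio (right, axis not from 0) in each library. The shares have exact 95% intervals smaller than the points, and the ratio has none drawn. The large subunit stands at 2.54% and 2.82% in Nat10 cKO, against 2.09% and 2.13% in WT, and the ratio at 1.273 and 1.272 against 1.228 and 1.234.

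Gene by gene, 42 of the 77 members (54.55%) were called higher in Nat10 cKO and none lower by edgeR's quasi-likelihood test at an adjusted p under 0.05, where 14.4% of all tested genes were called higher and 14.4% lower. At an unadjusted p under 0.05, 55 members were higher and 0 lower. No share of all tested genes was counted at an unadjusted p, here or below. DESeq2 called 37 members higher and 0 lower, and of its 15432 genes it called 932 higher (6.04%) and 1182 lower. By edgeR the calls were 28 of 46 in the large subunit (60.87%) and 14 of 31 in the small (45.16%). The median log2 fold change was 0.29 over the members, 0.32 in the large and 0.26 in the small subunit, against 0.0075 over all tested genes. Of the 77, 75 had a fold change above 0. In 65 members both Nat10 cKO libraries lay above both WT libraries, 40 of the large and 25 of the small subunit, where 32.3% of all tested genes did so. In 11 members the groups overlapped, and in 1, Rpl24, both Nat10 cKO libraries lay below.

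The number of calls rested on the libraries kept, while the medians kept their direction. With a library left out, its group has a single library, which is assumed to vary like those of the other group, so the spread comes from that other group alone. Without WT replicate 1, 4 large and 0 small subunit members were called (19 and 10 at an unadjusted p under 0.05), and without WT replicate 2, 3 and 2, when 8.94% and 7.36% of all tested genes were called higher. Without Nat10 cKO replicate 2 the calls were 18 and 9, with 12.3% of all tested genes higher, and without Nat10 cKO replicate 1 they were 38 and 26, with 13.4%. The medians with either WT replicate left out were 0.29 and 0.30 in the large and 0.26 and 0.24 in the small subunit. Rpl31 and Rpl23a were called under each of the 11 alternatives tried, and 30 of the 42 called members under each that kept all 4 libraries.

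**Figure D2:**
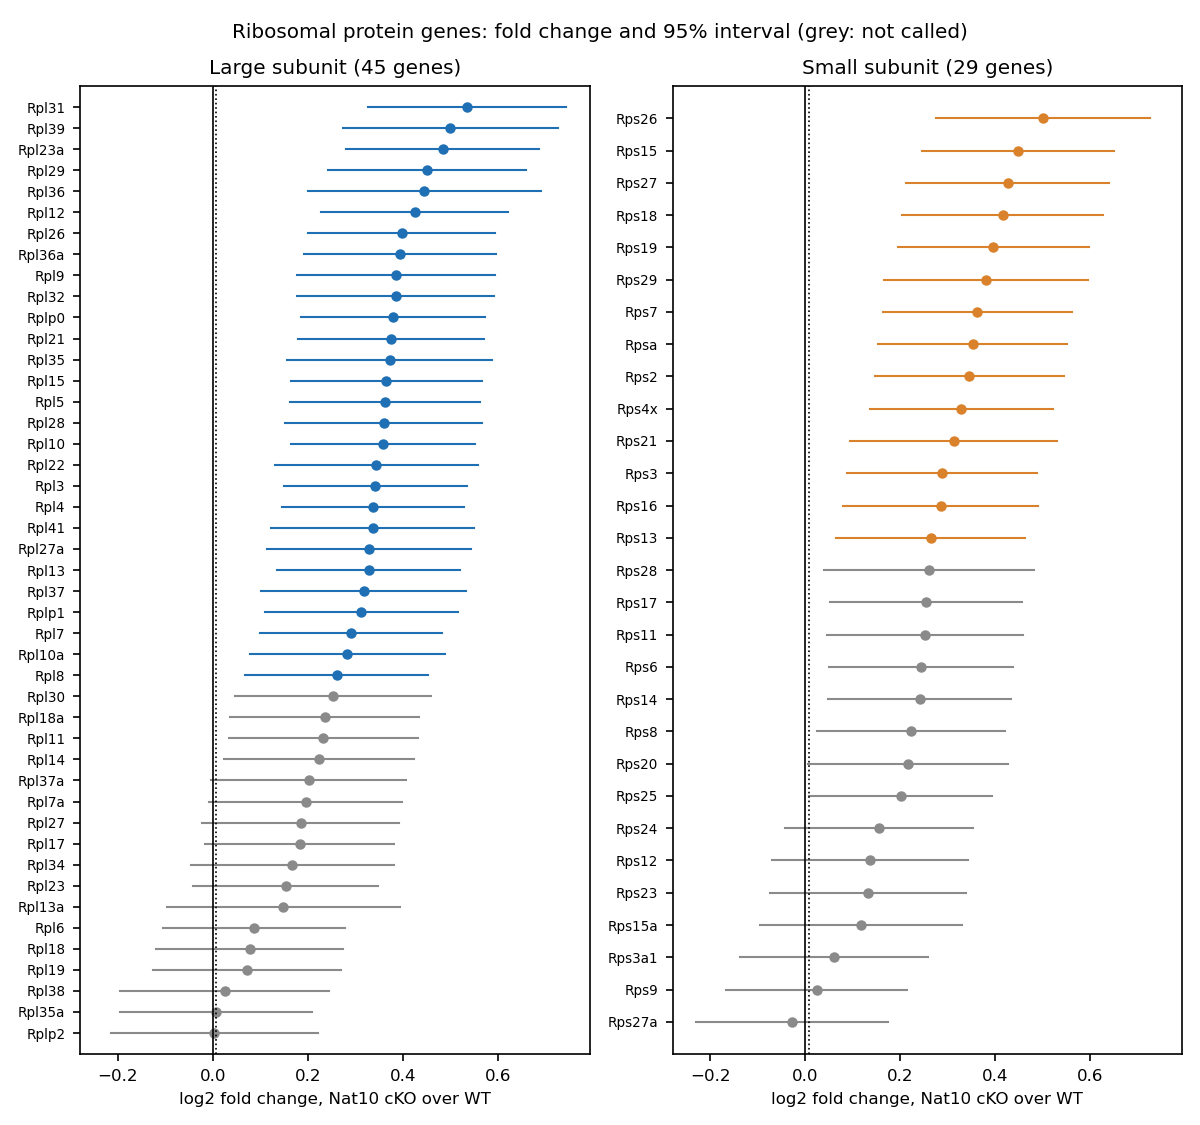
Log2 fold change, Nat10 cKO over WT, with its 95% interval (edgeR, 2 libraries each) for the large and small subunit genes of at least 10 CPM that are reported by name; coloured genes were called at an adjusted p under 0.05, grey ones were not, and the dotted line is the median of all tested genes. Rpl31 at 0.54 and Rps26 at 0.50 head the subunits, and Rplp2 at 0.00 and Rps27a at -0.03 close them.

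The 2 Nat10 cKO libraries did not stand equally high. Taken as the median over large subunit genes of at least 10 CPM (TMM-scaled), log2(CPM + 0.5) stood 0.042 and 0.22 above the mean of the 4 libraries in Nat10 cKO replicates 1 and 2, against -0.15 and -0.14 in WT replicates 1 and 2. For the small subunit the deviations were 0.039 and 0.21 in Nat10 cKO, against -0.13 and -0.13 in WT. Nat10 cKO replicate 2 lay above replicate 1 in 44 of 45 large and in 30 of 30 small subunit genes, by a median of 0.19 and 0.18, where the median over all tested genes was 0.0022. Between the WT replicates the medians were 0.014 and 0.032.

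**Figure D3:**
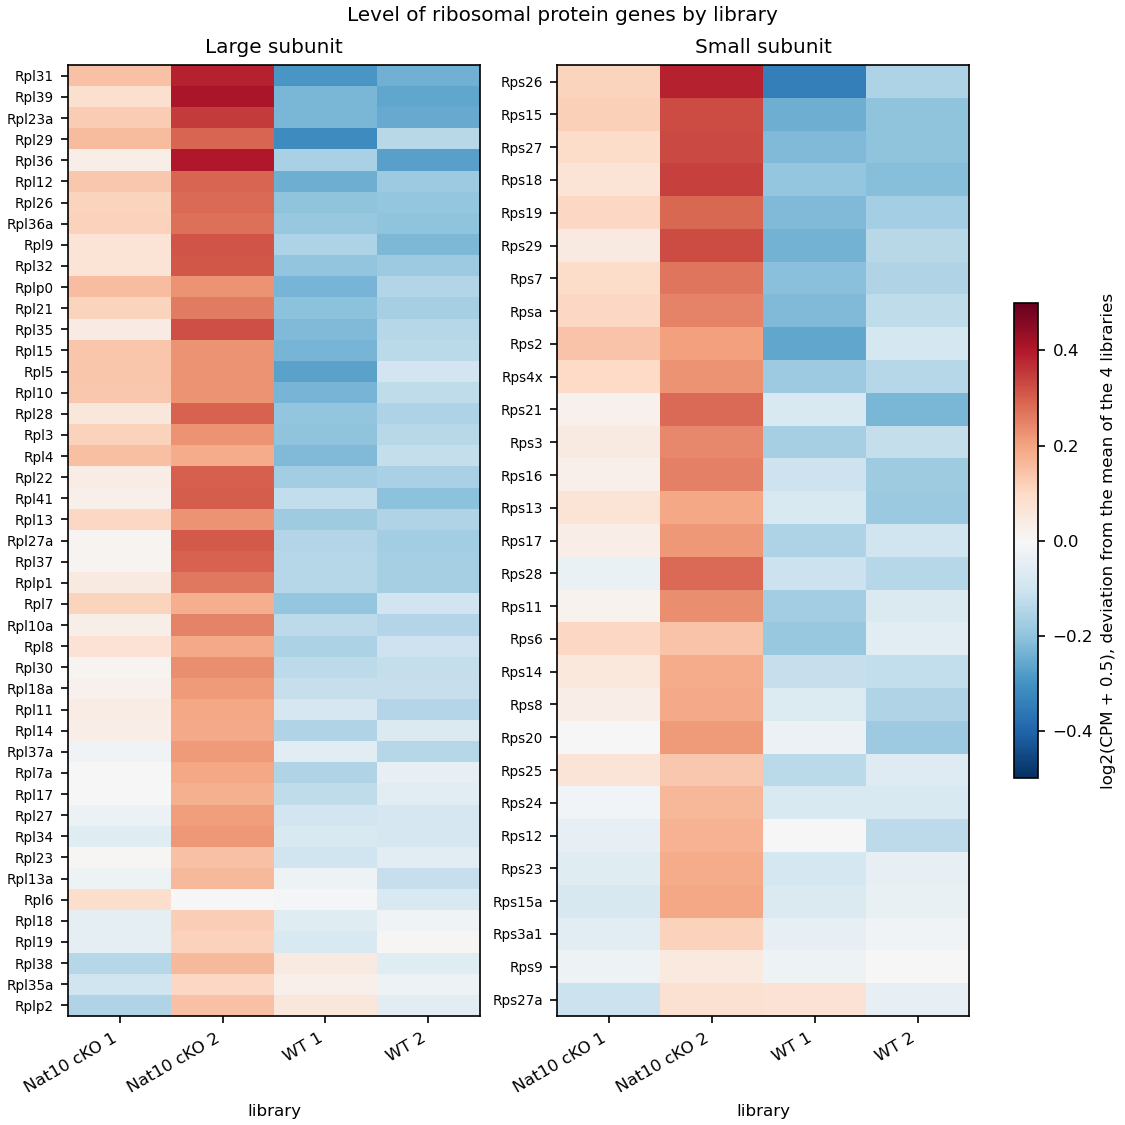
Level of each gene of at least 10 CPM that is reported by name in each library, as the deviation of log2(CPM + 0.5) from the mean of the 4 libraries (red above, blue below), ordered by the mean of the Nat10 cKO libraries. Nat10 cKO replicate 2 is the darkest red column, with medians of 0.22 and 0.21, and both WT columns are mostly blue.

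Ribosomal protein transcripts are short, and other short transcripts were more often called higher than lower. The members' transcripts had a median length of 729 bases, against 2882 for tested genes. These medians rest on different choices of transcript. For members it was the principal transcript with the longest coding part, and the shortest where these tied. Over tested genes it was the best-supported principal transcript, and the middle length where coding parts tied. Among the 655 other tested genes with a transcript under 1000 bases, the median log2 fold change was 0.12, 20.6% were called higher and 9.01% lower, and Nat10 cKO replicate 2 lay above replicate 1 by a median of 0.21. Within the 75 members of at least 10 CPM, fold change and log2 length had a Pearson r of -0.05 and a Spearman rho of -0.11, given as a description of genes from the same 4 libraries. With a trend on length and GC content removed from each library, the medians were 0.16 in the large and 0.13 in the small subunit. Then 22 and 11 members were called higher and 3 lower, Rpl35a (-0.22), Rpl38 (-0.28) and Rps27a (-0.20). Of the 11448 tested genes this correction called 1860 higher (16.2%) and 1922 lower. That trend was fitted over all genes, the members included. The part of transcript length in the shift was not tested further.

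**Figure D4:**
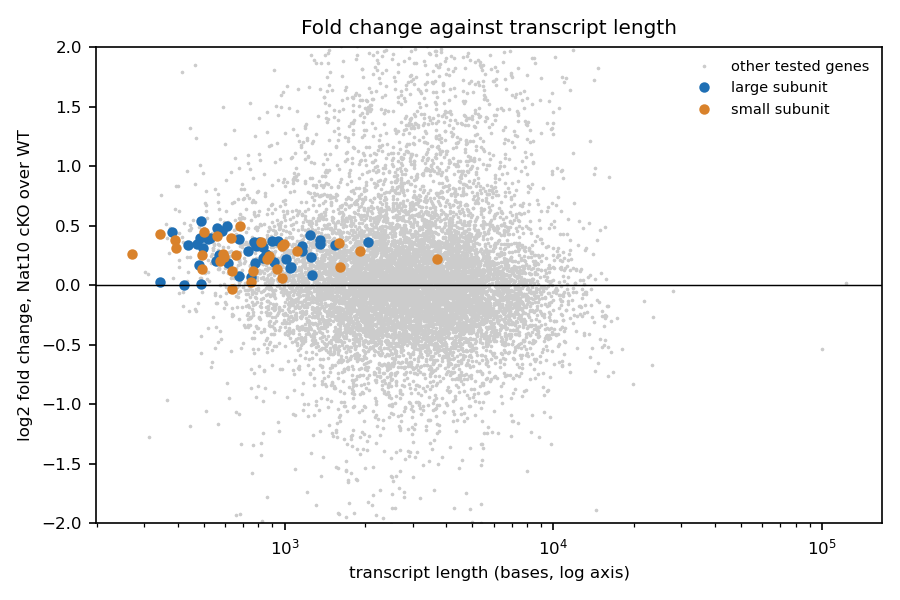
Log2 fold change, Nat10 cKO over WT, against transcript length (log axis) for tested genes within 2 of 0 on the log2 scale (grey) and the members of at least 10 CPM (blue large, orange small). The plotted members sit at short lengths and mostly above 0, with a median log2 fold change of 0.29. The median length of all 77 members is 729 bases. Lengths of members and of other tested genes come from different choices of transcript.

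The largest called rises in the large subunit were Rpl31, Rpl39, Rpl23a, Rpl29 and Rpl36. Rpl31 (ENSMUSG00000073702, chromosome 1, 39406923 to 39410992 on GRCm39), a protein at the mouth of the exit tunnel, stood at 393 and 463 CPM in Nat10 cKO, against 290 and 301 CPM in WT. The groups were apart by more than either spread, at 428 ± 49.6 CPM in Nat10 cKO and 295 ± 7.73 CPM in WT (SD, n = 2 each), and edgeR gave 0.54 on the log2 scale (SE 0.0995, adjusted p = 0.000483). Rpl39, which lines the exit tunnel, had 245 and 308 CPM in Nat10 cKO, against 198 and 193 CPM in WT (0.50, SE 0.108, adjusted p = 0.00178). Rpl23a, the docking site of nascent chain factors at the tunnel exit, had 528 and 616 CPM in Nat10 cKO, against 413 and 406 CPM in WT (0.48, SE 0.0972, adjusted p = 0.000994). Bracketed values are log2 fold changes with edgeR's adjusted p. All 3 genes had every Nat10 cKO library above every WT library. Rpl29 and Rpl36, proteins of the large subunit, had log2 fold changes of 0.45 (adjusted p = 0.00214) and 0.45 (adjusted p = 0.00752).

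The tunnel exit rim, where the growing protein leaves the ribosome, held 5 called members of 7, Rpl23a, Rpl26, Rpl31, Rpl35 and Rpl39. None was lower, and the median was 0.40. Over all members 54.55% were called higher, and over all tested genes 14.4%. Rpl26 stood at 685 and 773 CPM in Nat10 cKO, against 553 and 554 CPM in WT (0.40 on the log2 scale, SE 0.0940, adjusted p = 0.00369). Rpl35 rose by 0.37 (adjusted p = 0.0106). Rpl17 (0.18, adjusted p = 0.163) and Rpl19 (0.07, adjusted p = 0.617), neighbours on the same rim, did not pass the test. Without WT replicate 1 the rim had 3 calls, and without WT replicate 2 it had 2. Rpl19 was the rim gene whose groups overlapped, at 470 and 525 CPM in Nat10 cKO, against 460 and 487 CPM in WT.

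The P stalk, the flexible arm of the large subunit that recruits the GTPase translation factors, had a median of 0.35. It had 3 called genes of 4, where 54.55% of all members and 14.4% of all tested genes were called higher. Its base proteins rose: Rplp0, which carries the arm, had 1649 and 1730.3 CPM in Nat10 cKO, against 1260.5 and 1337 CPM in WT (0.38, SE 0.0920, adjusted p = 0.00444), and Rpl12 had 549 and 611 CPM in Nat10 cKO, against 423 and 441 CPM in WT (0.43, SE 0.0940, adjusted p = 0.00217). Of the 2 acidic proteins that pair on the arm, Rplp1 rose by 0.31 (SE 0.0968, adjusted p = 0.0211), at 1011 and 1177 CPM in Nat10 cKO and 889 and 874 CPM in WT. Its partner Rplp2 had 563 and 691 CPM in Nat10 cKO, against 650 and 602 CPM in WT (0.00, SE 0.104, 95% interval -0.21 to 0.22). The Nat10 cKO libraries of Rplp2 enclosed both WT libraries. The difference between Rplp1 and Rplp2 was not tested. Without either WT replicate none of the 4 was called by edgeR, with 3 and 2 of them at an unadjusted p under 0.05.

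Rpl5, which carries the 5S ribosomal RNA into the large subunit and with Rpl11 restrains MDM2 when assembly fails, rose by 0.36 (SE 0.0951, adjusted p = 0.0076), with 625 and 664 CPM in Nat10 cKO, against 471 and 531 CPM in WT. Rpl11 had 372 and 414 CPM in Nat10 cKO, against 342 and 328 CPM in WT (0.23, adjusted p = 0.0749), and Rpl23, another MDM2-binding protein, 953 and 1051 CPM in Nat10 cKO, against 886 and 916 CPM in WT (0.15, adjusted p = 0.239). In both, each Nat10 cKO library lay above each WT library without passing the test. Rpl38, needed for translation of Hox messenger RNAs in mouse embryos, had 328 and 405 CPM in Nat10 cKO, against 373 and 348 CPM in WT (0.02, 95% interval -0.20 to 0.25), and its groups overlapped.

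In the small subunit the largest called rises were Rps26, Rps15, Rps27, Rps18 and Rps19. Rps26 (ENSMUSG00000025362, chromosome 10, 128460403 to 128462616 on GRCm39), which lies where messenger RNA leaves the subunit, stood at 263 and 319 CPM in Nat10 cKO, against 192 and 219 CPM in WT, or 291 ± 39.2 CPM against 206 ± 18.6 CPM (SD, n = 2 each). The rise was 0.50 on the log2 scale (SE 0.108, adjusted p = 0.00175), and the lowest Nat10 cKO library was above the highest WT library. Rps15, a protein of the head near the decoding site, had 597 and 688 CPM in Nat10 cKO, against 464 and 478 CPM in WT (0.45, SE 0.0962, adjusted p = 0.00173). The zinc-binding protein Rps27 rose by 0.43 (adjusted p = 0.00395), the head protein Rps18 by 0.42 (adjusted p = 0.00446) and Rps19, the gene most often mutated in human Diamond-Blackfan anaemia, by 0.40 (adjusted p = 0.00437).

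The small subunit head, the part that grips the transfer RNAs, had a median of 0.27, against 0.29 over all members. It held 6 called members of 14, where 54.55% of all members and 14.4% of all tested genes were called higher. None of the head was lower by the main edgeR fit or DESeq2. Its calls numbered 0 without WT replicate 1, 1 without WT replicate 2, 3 without Nat10 cKO replicate 2 and 11 without Nat10 cKO replicate 1, and 10 under upper-quartile as under library-size scaling. Rps3, at the entry of the messenger RNA channel, had 735 and 843 CPM in Nat10 cKO, against 636 and 657 CPM in WT (0.29, SE 0.0956, adjusted p = 0.0304). Rps27a, a head protein made as a fusion with ubiquitin, had 988 and 1123 CPM in Nat10 cKO, against 1118.5 and 1036 CPM in WT (-0.03, 95% interval -0.23 to 0.17). It was the only small subunit gene with a fold change below 0, and that sign turned to 0.070 with upper-quartile factors and to 0.037 with library size only. With the length and GC correction, which called 16.2% of all tested genes higher, 6 head members were higher and 1 lower, Rps27a.

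Outside the head, Rpsa, which also serves as a laminin receptor, had the highest count level of the small subunit, 1676.5 and 1857 CPM in Nat10 cKO, against 1339 and 1429 CPM in WT (0.35, SE 0.0947, adjusted p = 0.00901). Rps6, the target of S6 kinase, had 613 and 629 CPM in Nat10 cKO, against 500.1 and 549 CPM in WT, without overlap (0.24, SE 0.0924, adjusted p = 0.0547). Of the 14 genes mutated in human Diamond-Blackfan anaemia, a failure of red cell production, 8 rose and none fell by the main edgeR fit or DESeq2. With the length and GC correction 6 rose and 1, Rpl35a, fell, and the median was 0.17. In the main fit 54.55% of all members and 14.4% of all tested genes were called higher. The 14 genes had a median of 0.36, with 12 higher and 0 lower at an unadjusted p under 0.05. Without WT replicate 1 the calls were 0, with 7 at an unadjusted p under 0.05, and without WT replicate 2 there was 1.

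The 4 members on the X chromosome, Rpl10, Rpl36a, Rpl39 and Rps4x, all rose, with a median of 0.38. On other chromosomes 38 of the 73 members did, with a median of 0.28, and 14.4% of all tested genes were called higher. Rpl10, which joins the large subunit last, had 782 and 831 CPM in Nat10 cKO, against 606 and 653 CPM in WT (0.36, adjusted p = 0.00693). Rpl36a, the homologue of the protein that in yeast can confer resistance to cycloheximide, had 258 and 289 CPM in Nat10 cKO, against 209 and 207 CPM in WT (0.39, adjusted p = 0.00465). Rps4x, a protein of the small subunit body, had 913 and 995 CPM in Nat10 cKO, against 749.6 and 769.8 CPM in WT (0.33, adjusted p = 0.0117). A difference between the X and the other chromosomes was not tested.

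Levels per length differed widely between members. Per kilobase of transcript, the highest in the large subunit were Rpl41, the smallest ribosomal protein, at 2451 CPM per kilobase in Nat10 cKO and 1942 in WT, Rplp1 at 2193 in Nat10 cKO and 1766 in WT, and Rplp2 at 1489 in Nat10 cKO and 1486 in WT. The highest in the small subunit were Rps14, lost in the human 5q- syndrome, at 1759 CPM per kilobase in Nat10 cKO and 1489 in WT, Rps12, a head protein, at 1676 in Nat10 cKO and 1526 in WT, and Rps27a at 1657.5 in Nat10 cKO and 1691 in WT. Of these 6 genes Rpl41 (log2 fold change 0.34, adjusted p = 0.0184) and Rplp1 rose. Rps14 (0.24, adjusted p = 0.0583) and Rps12 (0.14, adjusted p = 0.336) did not pass the test. Rpl15, of the large subunit core, was low at 296 CPM per kilobase in Nat10 cKO and 229 in WT and rose by 0.36 (adjusted p = 0.00769). The level of Rps20, a head protein, at 119 CPM per kilobase in Nat10 cKO and 103 in WT, rests on an annotated transcript of 3706 bases, and its fold change was 0.22 (adjusted p = 0.116).

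Levels were near the floor for Rpl24, which bridges the subunits, and Rps10, of the head, although every ribosome carries their proteins. Rpl24 had 2 and 10 counts in Nat10 cKO, against 11 and 11 in WT (log2 fold change -1.08, SE 0.666, adjusted p = 0.246), and Rps10 had 26 and 21 counts in Nat10 cKO, against 10 and 8 in WT (1.18, SE 0.506, adjusted p = 0.091). These counts are too few to give the level of either gene. Rpl13a, known from the human GAIT complex that silences inflammatory messenger RNAs, was also low, at 41.0 and 46.8 CPM in Nat10 cKO and 40.9 and 38.5 CPM in WT (0.15, adjusted p = 0.379). Of the 50-base stretches of their transcripts in the GENCODE M21 annotation, 81.69% (Rpl24), 92.43% (Rps10) and 57.41% (Rpl13a) also occur in transcripts of other genes. Rps10 shares 4805 of the 6252 bases of its span with Gm49804, and Rpl13a 2840 of 3204 with Gm45713, genes of the same strand that had 0 counts. Rpl13, which is not low, shares all 2895 bases of its span with Galnt2l, also of the same strand and with 0 counts. It had 551 and 598 CPM in Nat10 cKO, against 453 and 462 CPM in WT. Where reads of these genes were counted was not tested.

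Most ribosomal protein genes have pseudogene copies, so the counts can hold or lose reads of a copy. For 69 members at least 25% of the 50-base stretches occur in transcripts of other genes. Of these members 37 were called higher, with a median of 0.29, where 14.4% of all tested genes were. Of the 8 members below 25%, 5 were called higher, with a median of 0.27. Both Nat10 cKO libraries lay above both WT libraries in 32.3% of all tested genes and in all 8 of these members. Among them Rpl8, near the peptidyl transferase centre, shares 7.86% and rose by 0.26 (741 and 804 CPM in Nat10 cKO, against 632 and 657 CPM in WT, adjusted p = 0.0402). Rps3 shares 2.96%. The share counts stretches found on either strand of the transcripts of any other gene, so it does not measure pseudogene copies alone. It is taken over the whole transcript chosen, so it also depends on that transcript's length. Rps20 (7.57% of 3706 bases, coding part 357) and Rps24 (19.05% of 1613 bases, coding part 399) also fall under the limit. They share stretches with 50 and 10 genes. Whether they would stay under it with another transcript was not tested. The span of 15 members overlaps a gene on the opposite strand, Rpl31 and Rpl23a among them. Reads of the overlapping stretch cannot be told apart if the counting ignored strand. Tbc1d8, opposite Rpl31, had 43 to 95 counts in any library, and Tlcd1, opposite Rpl23a, had 11 to 34. Ndst1, opposite Rps14, had 2344 to 3634.

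Among ribosomal proteins whose symbols the name rule does not take, Rack1, a scaffold on the small subunit head, rose with 873 and 929 CPM in Nat10 cKO, against 663 and 726 CPM in WT (0.37, SE 0.0933, adjusted p = 0.00531). Fau, made as a fusion with a ubiquitin-like domain, differed by 0.15 (adjusted p = 0.241). Of 16 listed homologues and copies 8 were tested, and 2 were called higher, where 14.4% of all tested genes were. The paralogues Rps27l (104 and 118 CPM in Nat10 cKO, against 83.3 and 87.2 CPM in WT, adjusted p = 0.0109) and Rpl39l (4.66 and 6.48 CPM in Nat10 cKO, against 2.35 and 2.82 CPM in WT, adjusted p = 0.00903) rose by 0.38 and 1.10. Rpl22l1 (-0.08, adjusted p = 0.646), Rpl7l1 (-0.25, adjusted p = 0.0797) and the copies Rps27rt (0.48, adjusted p = 0.103), Rps18-ps5 (0.88, adjusted p = 0.136), Rpl9-ps6 (0.35, adjusted p = 0.292) and Rpl10-ps3 (-0.39, adjusted p = 0.229) did not pass. Without WT replicate 1 or 2, Rack1 and Rps27l lost their calls, at adjusted p values of 0.0568 to 0.189.

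Some other messenger RNAs known to begin with a TOP motif were higher too. Of 19 listed translation factors and related genes, all tested, 7 rose and none fell, where 14.4% of all tested genes were called in each direction, with a median of 0.22, against 0.0075 over all tested genes. At an unadjusted p under 0.05, 10 were higher and 0 lower, and DESeq2, which called 6.04% of its genes higher, had 7 and 0. The called genes were the intermediate filament gene Vim, the elongation factors Eef1b2, Eef1g and Eef2, the initiation factor subunits Eif3f and Eif3h and the nucleolar chaperone Npm1. Vim had 1559 and 1588.5 CPM in Nat10 cKO, against 1047 and 1072 CPM in WT (0.57, SE 0.0904, adjusted p = 0.000101). Eef1b2 had 427 and 475 CPM in Nat10 cKO, against 339 and 354 CPM in WT (0.38, SE 0.0943, adjusted p = 0.00522). Without WT replicate 1, and likewise without WT replicate 2, 1 of the 19 was called, and with upper-quartile factors, which called 19.6% of all tested genes higher, 12 were.

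Few regulators of these messenger RNAs were called. Of 15 genes of mTOR, LARP1 and S6 kinase control, 1 rose and 1 fell, no more than the 14.4% of all tested genes called in each direction, with a median of -0.05 that turned to 0.050 with upper-quartile factors and 0.019 with library size only. Larp1, which binds the TOP motif, fell by 0.62 on the log2 scale, with 462 and 394 CPM in Nat10 cKO, against 677 and 636 CPM in WT (SE 0.0988, adjusted p = 0.000111), and was called under all 11 alternatives. Pdcd4, an inhibitor of initiation that S6 kinase removes, rose by 0.79, with 18.5 and 16.8 CPM in Nat10 cKO, against 9.91 and 10.5 CPM in WT (SE 0.164, adjusted p = 0.00132). Mtor itself had 19.1 and 16.2 CPM in Nat10 cKO, against 14.8 and 12.5 CPM in WT (0.37, adjusted p = 0.0976), and Eif4ebp1, the repressor of cap binding that mTOR inactivates, differed by 0.24 (adjusted p = 0.137). Upper-quartile factors called 4 of the 15 higher, and without Nat10 cKO replicate 2 and without Nat10 cKO replicate 1 there were 3 and 2.

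Among 9 tested transcription factors known to act on ribosomal protein genes, 2 rose and 1 fell, near the 14.4% of all tested genes called in each direction, with a median of -0.07 (0.02 with upper-quartile factors). Myc, a driver of ribosome synthesis, had 15.4 and 12.9 CPM in Nat10 cKO, against 7.96 and 8.62 CPM in WT (0.76, SE 0.182, adjusted p = 0.00408), and Tfdp1, the partner of E2F, rose by 0.40 (adjusted p = 0.0184). Zbtb7a, a zinc finger repressor, fell by 0.57 on the log2 scale, with 307 and 249 CPM in Nat10 cKO, against 428 and 397 CPM in WT (adjusted p = 0.00046). Max, the partner of MYC, differed by -0.25 (adjusted p = 0.0745). Gabpa and Gabpb1, the subunits of the factor that binds CCGGAAG, differed by 0.13 (adjusted p = 0.59) and -0.34 (adjusted p = 0.0799). DESeq2 did not call Tfdp1 (adjusted p = 0.124), and without Nat10 cKO replicate 2, WT replicate 1 or WT replicate 2, 1 factor of the list was called higher.

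The dedicated chaperones and importers, which shield new ribosomal proteins and carry them into the nucleus, had 0 of 15 higher and 4 lower by edgeR, where 14.4% of all tested genes were called in each direction (1 and 4 at an unadjusted p under 0.05, 0 and 1 by DESeq2), with a median of -0.07. Aamp, a WD repeat protein, had 174 and 187 CPM in Nat10 cKO, against 259 and 251 CPM in WT (-0.50, SE 0.0950, adjusted p = 0.000602). Tsr2, which escorts Rps26, had 8.36 and 10.9 CPM in Nat10 cKO, against 15.8 and 15.1 CPM in WT (-0.67, SE 0.178, adjusted p = 0.00834). Grwd1, the homologue of the yeast chaperone of Rpl3, fell by 0.41 on the log2 scale (adjusted p = 0.0371), and Bccip, the homologue of the yeast chaperone of Rpl23, by 0.32 (adjusted p = 0.0405). Upper-quartile factors called 3 of the 15 higher and 2 lower, and moved the median to 0.02, and library size only called 1 and 2. Without WT replicate 1, and likewise without WT replicate 2, 2 fell.

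**Figure D5:**
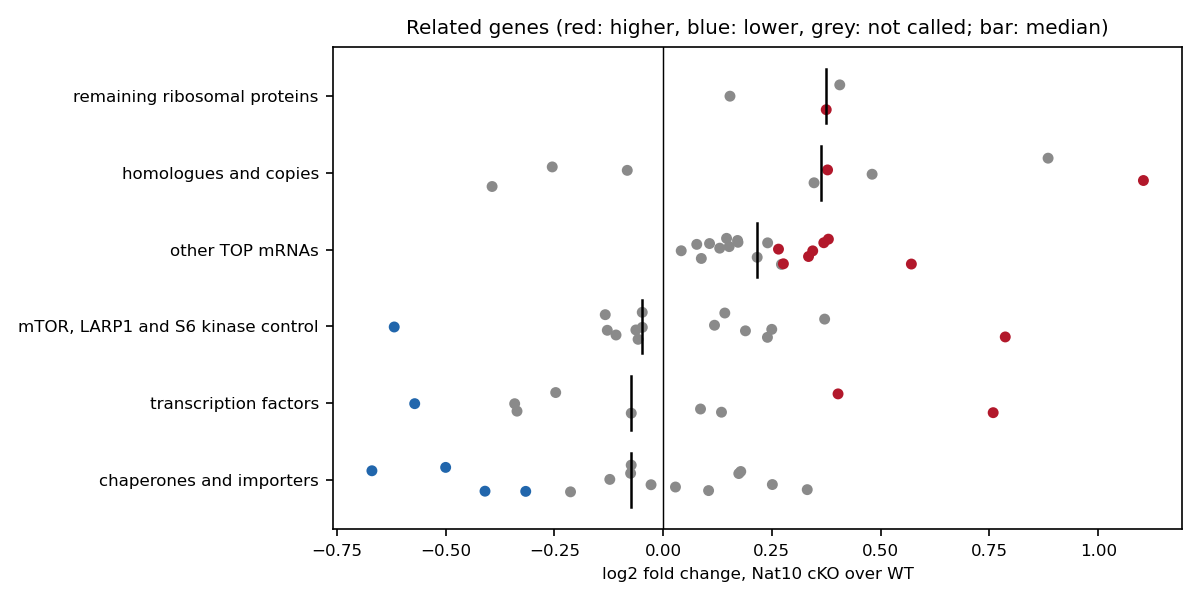
Log2 fold change, Nat10 cKO over WT, of the tested genes of 6 lists related to the ribosomal proteins; red points were called higher, blue lower and grey not at an adjusted p under 0.05, and bars are medians. The TOP list has a median of 0.22 and 7 higher of 19, and the chaperones and importers have 4 lower of 15.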

How the data were processed

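The authors deposited 1 table of unnormalized read counts of protein-coding genes, per the file headers. The submitters' processing notes name fastp 0.20.0, STAR 2.7.9a, featureCounts 2.0 and GRCm39. The sources used here do not give the strand setting or the annotation release.

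The genes that filterByExpr kept were tested by edgeR 4.0.16 with TMM scaling in R 4.3.3 (quasi-likelihood test, two-sided, genotype as the only term, 2 libraries a group), with Benjamini-Hochberg adjustment over 11448 genes and calls at an adjusted p under 0.05. Fold changes are log2, Nat10 cKO over WT. The standard error is the absolute log2 fold change divided by the square root of the F statistic. The fit was tested on simulated data. Alternatives were DESeq2 1.42.0, other scalings, a length and GC correction, no filter, the replicate number as a block, and each library left out. Replicates differed by more than sampling noise (chi-square per gene 11.2 in Nat10 cKO, 6.16 in WT), and the biological coefficient of variation was 8.28%.

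Transcript lengths and shared 50-base stretches came from GENCODE M21 by gene identifier, and promoters from RefSeq by symbol. The members and lists were chosen with earlier results of these data known. Named members are the 5 largest called changes in each direction per subunit, the 3 highest and 3 lowest levels per kilobase, the P stalk, 5S particle, tunnel rim and X chromosome genes, Rps6, Rpsa, Rps3, Rpl13a, Rpl38 and Rps27a. From the related lists these are the homologues tested and up to 4 genes with the smallest p. Rps9, Rpl8, Rpl13, Rps24, Rpl35a, Rpl23, Gabpa, Gabpb1, Eef1g, Eef2 and Eif3h were named after their values were seen. The exact intervals of shares cover counting error only, and those of fold changes come from edgeR. Some genes counted in the totals are not reported here by name.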

Additional observations from a re-analysis of the deposited data

How the results depend on the processing

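Direction held for both subunit medians under all 11 alternatives, and the large to small ratio and the members' share kept theirs with each library left out and with either other member set. Upper-quartile factors and library size only called 22 small subunit members higher each, and moved the median of all tested genes to 0.11 and 0.074, against 0.0075. Over all genes they called 2247 higher and 1110 lower, and 2026 and 1252, against 1652 and 1650 with TMM. The length and GC correction gave medians of 0.16 in the large and 0.13 in the small subunit, and 2 large and 1 small subunit members lower. Over all genes it called 1860 higher and 1922 lower. The ratio was 0.034 without Rps27a and members with a named copy. With each library left out, large subunit calls ranged from 3 to 38 and small from 0 to 26, the large median from 0.20 to 0.38, the small from 0.17 to 0.34 and the share from 0.24 to 0.40 on the log2 scale.

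With the length and GC correction Rpl19 was at -0.0502, Rpl38 at -0.28, Rplp2 at -0.0673 and Rps12 at -0.10. Rplp2 was at -0.00997 by DESeq2 and -0.0025 with the block, and Rps27a at 0.0697 with upper-quartile factors and 0.0375 with library size only. With a library left out Rpl19 ranged from -0.0122 to 0.14, Rpl38 from -0.14 to 0.16, Rplp2 from -0.15 to 0.13 and Rps27a from -0.13 to 0.0503. The cause was not tested.

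By the labels, replicates of the groups share only a number. Across 7856 genes the difference between replicates 1 and 2 correlated between the groups with r = 0.29. What else libraries of the same number may share is not given and was not tested. With the replicate block 35 large and 22 small subunit members were called higher. Over all tested genes the block called 2126 higher (18.6%) and 2175 lower, against 1652 and 1650 without it.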
